A study of Mus musculus with 4 samples.

Results

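The autophagy and lysosome genes examined here were 47 mouse genes picked by symbol for their known roles. Earlier results of these data were known when the list was made. Of these, 43 had a value in all 4 samples, among 20340 gene labels of the dataset that did. Mcoln1 had a value in only 2 samples, and Hexa, Vps11 and Atp6v0d1 had no value that could be used and were not analysed here. All 43 genes passed the filter for the tests, which asked for at least 1 FPKM in at least 2 samples. FPKM, a fragment count divided by transcript length and by the total of mapped fragments, allows for length, so levels of different genes can be set side by side within a sample.

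The dataset is mRNA-seq of muscle from wild-type C57BL/6 mice, with 2 samples at 20 months (Old 1 and Old 2) and 2 at 3 months (Young 1 and Young 2), collected to find genes that differ in muscle atrophy of aging. According to the methods of the study the muscle was the tibialis anterior (TA), at the front of the lower leg. Neither age carried a transgene or received a treatment, and the number of mice behind each sample is not given in the sources used here. The design text gives 3 samples per age, of which 2 per age were analysed here. The RNA came from whole muscle, where fewer cells of a type and less RNA per cell cannot be told apart.

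Autophagy is the route by which a cell wraps proteins and organelles in a double membrane, the autophagosome, and delivers them to the lysosome for breakdown. A kinase complex starts the process, a lipid kinase complex marks the membrane, and 2 linked conjugation reactions attach Atg8-family proteins to the growing membrane, where they hold cargo receptors. In skeletal muscle the route is known for removing damaged mitochondria and protein aggregates, and both too much and too little of it are known to go with muscle wasting. The lysosome that receives the cargo is acidified by a proton pump and holds cathepsins and other hydrolases.

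The samples differed in scale before any comparison of ages. Over the 43 genes the median FPKM was 18.7 in Old 1 and 18.2 in Young 2, against 9.55 in Old 2 and 9.06 in Young 1. Old 1 exceeded Old 2 by a median log2 ratio of 1.01 (robust SD 0.0952 over the 43 genes, range 0.93 to 1.65), and Young 2 exceeded Young 1 by 0.99 (robust SD 0.0986, range 0.69 to 1.63). Samples of the same age thus differed by nearly the same factor for most of the 43 genes. The spread around that factor was smaller than the spread of the ratios between ages, with robust SDs of 0.359 and 0.329. Over all tested genes the factor was less even. With a mean below 5 FPKM the median log2 ratio was 1.46 in Old and 1.41 in Young, against 1.01 and 0.99 from 5 FPKM up. Loci at 0 numbered 9558 in Old 2 and 9452 in Young 1, against 5223 in Old 1 and 5335 in Young 2. The study calls the mRNA-seq experiments of each age independent and used several mice in a group, without tying mice to the deposited samples. Whether the 2 samples of an age came from separate animals or from the same RNA was not tested. If they came from the same RNA, no p-value below has a biological replicate behind it. Ratios of Old to Young are therefore given in the 2 pairs of like scale, Old 1 over Young 2 and Old 2 over Young 1, pairs that were picked with earlier results of these data known.

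**Figure D1:**
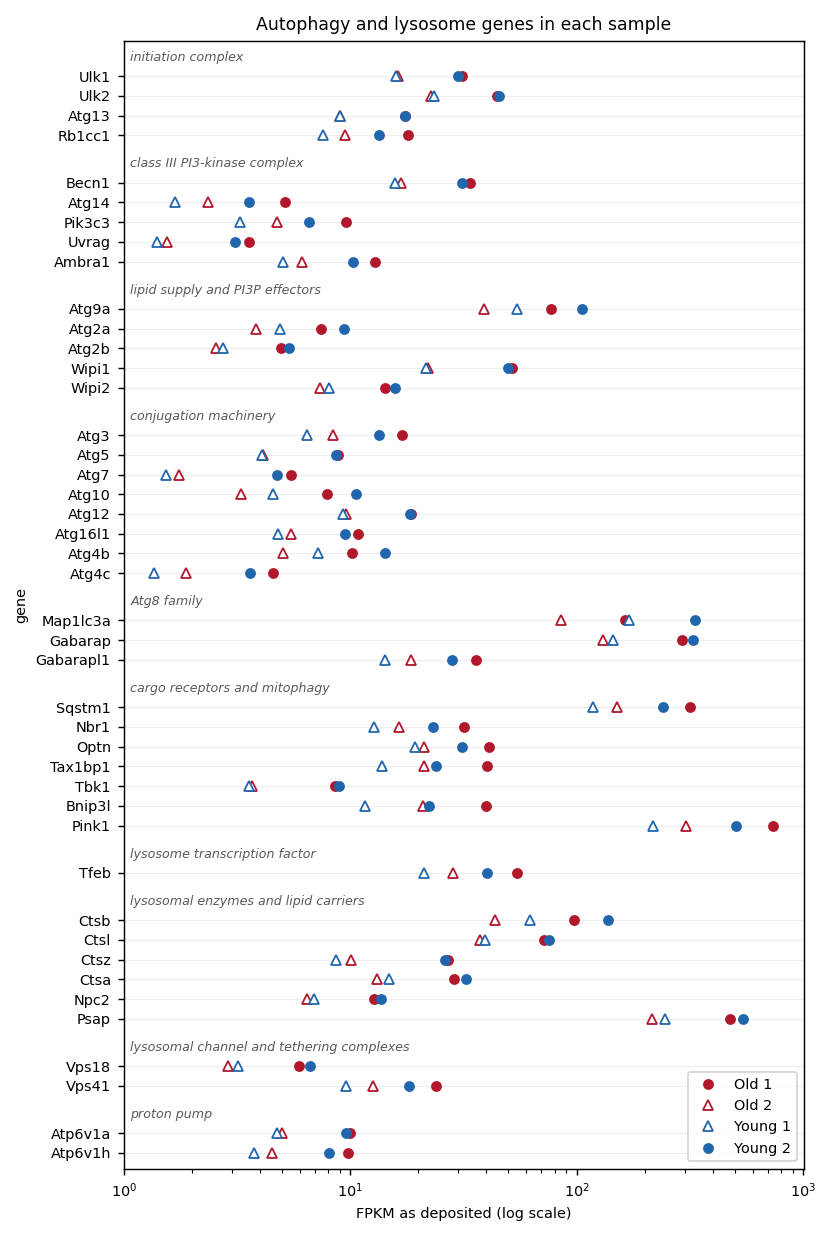
FPKM as deposited (x axis, log scale) of the 43 genes (y axis, grouped by role), with red for Old and blue for Young and filled circles for Old 1 and Young 2, open triangles for Old 2 and Young 1. For most genes the filled symbols lie together and apart from the open ones, and at Map1lc3a both red symbols lie left of both blue ones, with 163 FPKM in Old 1 and 170 in Young 1.

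Within each sample the genes spanned a wide range of levels, from mean FPKM values over the 4 samples of 2.41 for Uvrag to 441 for Pink1. The same 5 genes were the highest in every sample, namely Pink1, a kinase that marks damaged mitochondria, Psap, the precursor of proteins that help lysosomal enzymes break down lipids, the cargo receptor Sqstm1, and the Atg8-family genes Gabarap and Map1lc3a. Together they made up between 65.4% and 67.5% of the summed FPKM of the 43 genes. The order among them differed by age. Pink1 was first and Psap second in both old samples, and Psap was first and Pink1 second in both young samples. Map1lc3a held rank 3 in both young samples and rank 5 in both old samples, whereas Sqstm1 held rank 5 in young and rank 3 in old muscles. For 32 of the 43 genes the rank moved by at most 3 places over the 4 samples, and the widest move was 8 places (Atg10).

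In old muscles Map1lc3a was lower and the mitophagy receptor Bnip3l, the cargo receptor Tax1bp1 and the lipid kinase gene Pik3c3 were higher than in young muscles of like scale. The cathepsin gene Ctsb was lower. These 5 genes were those with a log2 ratio of at least 0.5 in size in both pairs, 3 higher and 2 lower, where 9.25% of all tested genes were higher and 12.2% lower by that measure. Among 43 genes, 3 and 2 are smaller shares than those of all tested genes. By sign alone, 26 genes had a log2 ratio above 0 in both pairs and 15 had one below 0, against 42.3% and 45.2% of all tested genes. The median log2 ratio was 0.06 in Old 1 over Young 2 and 0.07 in Old 2 over Young 1, compared with -0.01 and -0.02 over all tested genes. Summed over the 43 genes, FPKM in old muscles was 1.02 times that in young muscles in the first pair and 0.996 times in the second, so the differences ran in both directions and left the sum of the list nearly level.

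**Figure D2:**
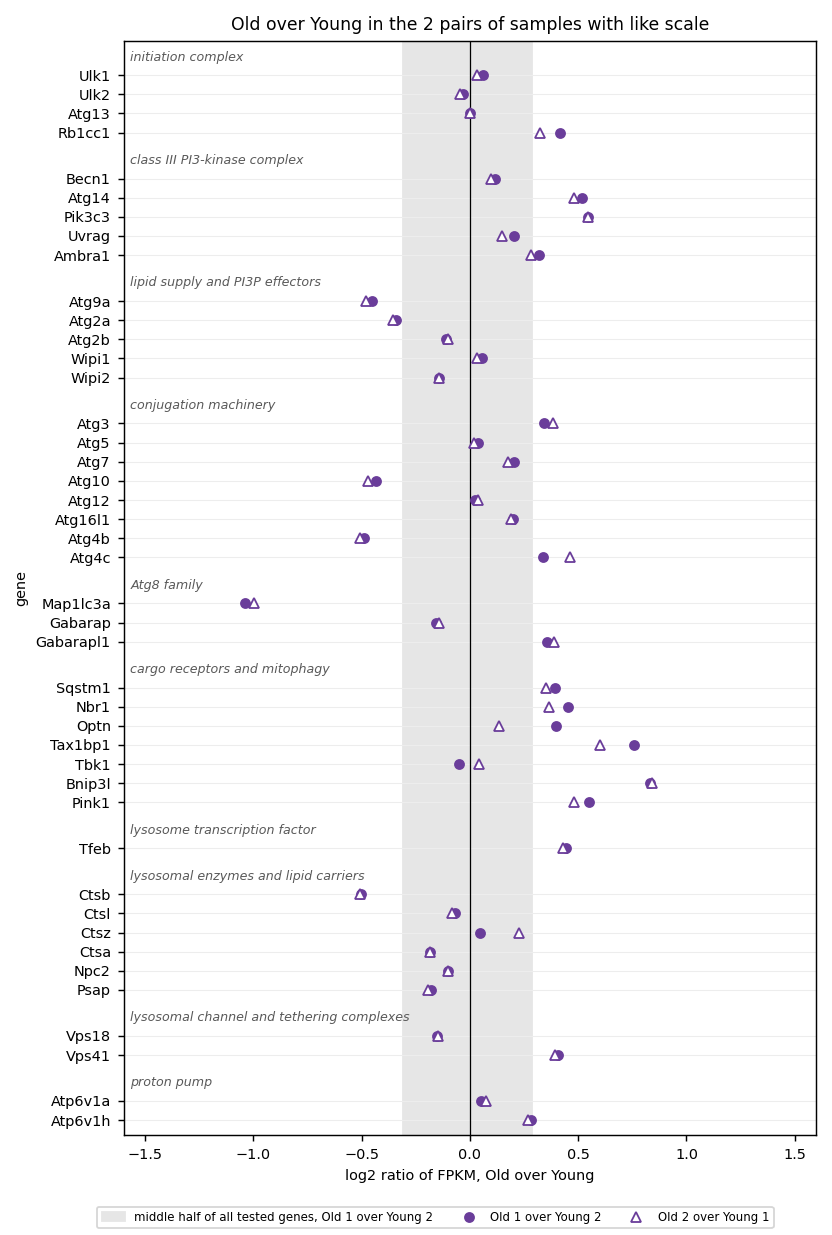
log2 ratio of FPKM, Old over Young (x axis), of the 43 genes (y axis, grouped by role), with filled circles for Old 1 over Young 2 and open triangles for Old 2 over Young 1. The grey band spans the interquartile range of all tested genes in Old 1 over Young 2, from -0.31 to 0.28, and Map1lc3a, Bnip3l and Tax1bp1 lie farthest outside it, at -1.04, 0.83 and 0.76 in that pair.

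The 2 pairs gave close values. The median absolute difference between their log2 ratios was 0.0194 over the 43 genes, 39 genes differed by at most 0.1, and Optn differed most, by 0.267. Atg13 and Tbk1 were the genes with ratios of opposite sign in the pairs, with sizes of at most 0.05.

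As deposited, none of the 43 genes passed the test between ages. limma on log2(FPKM + 1) with Benjamini-Hochberg adjustment over 10266 genes called 0 members higher and 0 lower in Old (adjusted p = 1.00 for each, and 0 members at an unadjusted p under 0.05, where 0.75% of all tested genes were), where 0.175% of all tested genes were called higher and 0.127% lower. Standard errors of the log2 fold changes ran from 0.932 to 1.11, with the samples of each age apart by the factor given above. In this fit the variance of each gene was drawn to a trend over all tested genes (20532 degrees of freedom). The standard errors as deposited thus follow the level of a gene rather than its own spread. When each sample was scaled by the median ratio of its genes, an alternative added after seeing the data, the standard errors of the members ranged from 0.0453 to 0.225, and 5 members were called higher (5.61% of all tested genes were) and 3 lower (7.94%). With cyclic loess normalization, also added then, 14 were called higher (15.4%) and 4 lower (15.1%). Quantile normalization called 1 member higher (1.16% of all tested genes) and 1 lower (1.83%), the crossed pairs as a block called 17 higher (27.4%) and 13 lower (32.9%), and the numbers of the labels as a replicate block called 0 in either direction (0.0195% and 0.0292%). After median-ratio scaling 20 members had old samples above young ones without overlap (27.8% of all tested genes did) and 10 had them below (28.4%). Without a block or further scaling none of these calls stood. An exact permutation test over the 4 samples cannot go below p = 0.333 (two-sided) with 2 samples per age, which Map1lc3a alone reached.

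**Figure D3:**
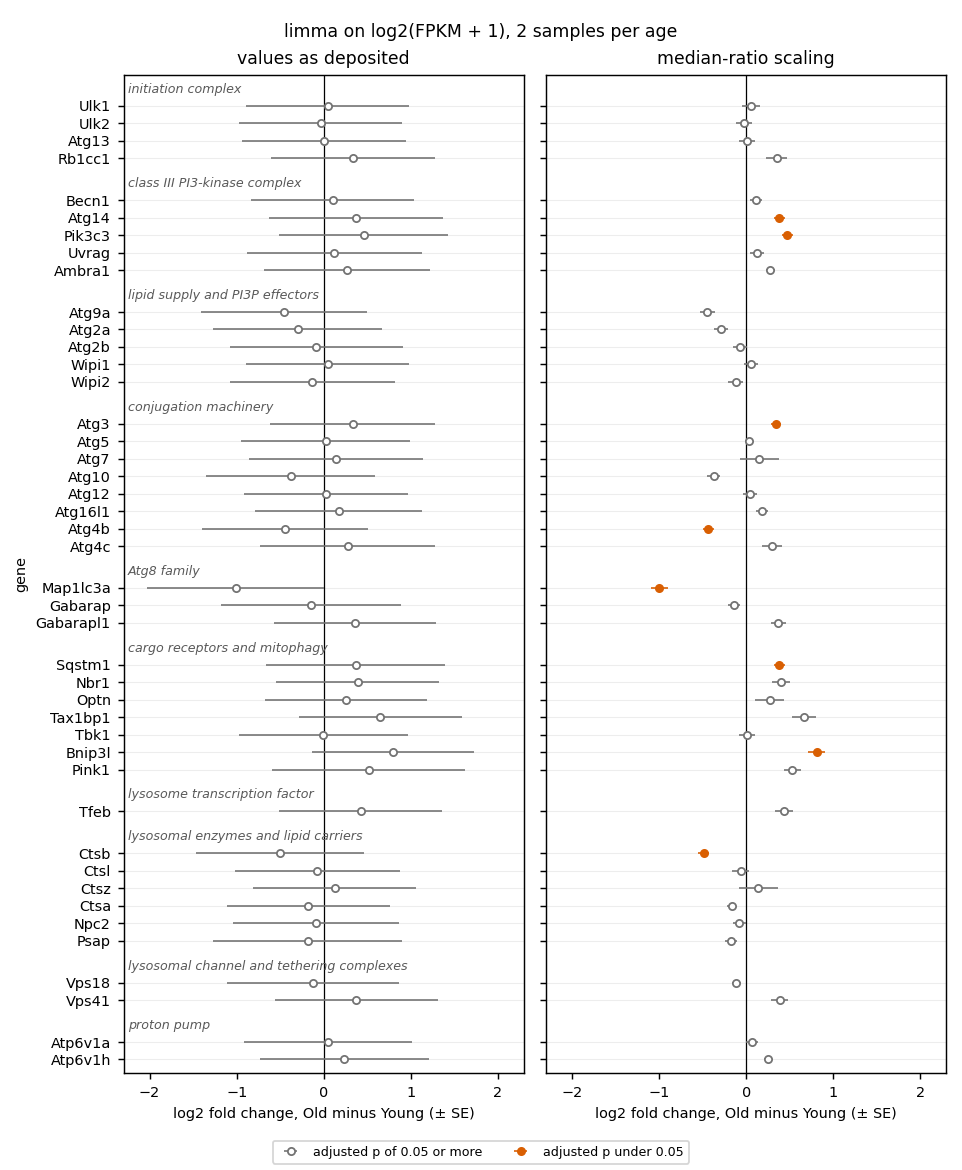
log2 fold change, Old minus Young, with its standard error from limma on log2(FPKM + 1) (x axes) for the 43 genes (y axis), with the values as deposited at left and after median-ratio scaling at right. Filled orange points have an adjusted p under 0.05, which 0 genes have at left and 8 at right.

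The Atg8 family held the gene with the largest difference. Map1lc3a (mm10, chromosome 2, 155276364-155278073) encodes a protein that is joined to lipid on the autophagosome membrane. It was at 163 FPKM in Old 1 and 85.0 in Old 2, against 170 in Young 1 and 335 in Young 2. Both old samples lay below both young samples, although Old 1 and Young 1 were close, and Map1lc3a was the only member whose ages did not overlap as deposited (1.93% of all tested genes were lower without overlap, and 1.61% higher, with 0 members). In pairs of like scale it was 0.487-fold in Old 1 over Young 2 and 0.50-fold in Old 2 over Young 1. The log2 fold change was -1.01 ± 1.02 (SE, limma as deposited) and -1.0 ± 0.0962 after median-ratio scaling (limma, adjusted p = 0.0274).

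The other members of the family that were analysed did not follow it. Gabarap, which acts later in closing and delivering the autophagosome, was at 293 FPKM in Old 1 and 131 in Old 2, against 145 in Young 1 and 326 in Young 2, a log2 ratio of -0.16 and -0.14 in the pairs. Its value covers the neighbouring gene Ctdnep1 as well, since both share 1 row. Gabarapl1, a close relative, was at 36.1, 18.6, 14.2 and 28.2 FPKM in Old 1, Old 2, Young 1 and Young 2, a log2 ratio of 0.36 and 0.39. Within each sample, where no scale factor enters, Map1lc3a made up 33.1% of the summed FPKM of the 3 genes in Old 1 and 36.2% in Old 2, against 51.7% in Young 1 and 48.6% in Young 2. Gabarapl1 made up 7.35% and 7.94% in old, and 4.33% and 4.10% in young muscles. For both genes the shares of the ages did not overlap. Such a lack of overlap was common once scale was removed. After median-ratio scaling, 28.4% of all tested genes were lower and 27.8% higher in old samples without overlap. The sum of these 3 rows was 0.714 times as high in old as in young muscles in each pair. It is not a total of the family, since it includes Ctdnep1 and leaves out Map1lc3b and Gabarapl2.

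Among cargo receptors and mitophagy genes, 6 of 7 had ratios above 0 in both pairs and none had ratios below 0 in both. Bnip3l (chromosome 14, 66985240-67008959), a receptor in the outer mitochondrial membrane that binds Atg8-family proteins, was at 39.9 FPKM in Old 1 and 20.9 in Old 2, against 11.7 in Young 1 and 22.4 in Young 2. Old 2 lay just below Young 2, so the ages overlapped as deposited, while the fold change was 1.78 and 1.79 in the pairs. The log2 fold change was 0.80 ± 0.932 (SE) as deposited and 0.81 ± 0.0987 after median-ratio scaling (limma, adjusted p = 0.0338).

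Tax1bp1 (chromosome 6, 52713580-52766811), a receptor for ubiquitin-tagged cargo, was at 40.3, 21.1, 13.9 and 23.9 FPKM in Old 1, Old 2, Young 1 and Young 2. The log2 ratio was 0.76 in the first pair and 0.60 in the second, and the gene missed the threshold after median-ratio scaling (limma, adjusted p = 0.0678). Pink1 (chromosome 4, 138304738-138326304), at 737, 305, 218 and 503 FPKM in the same order, had log2 ratios of 0.55 and 0.48 and missed it as well (limma, adjusted p = 0.0572). As a share of the summed FPKM of the 43 genes Pink1 was 25.1% and 22.5% in old and 16.1% and 17.5% in young muscles. These shares did not overlap, which was common, as 27.8% of all tested genes were higher without overlap after median-ratio scaling.

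Sqstm1, the best-known receptor for ubiquitin-tagged aggregates, was at 316 FPKM in Old 1 and 150 in Old 2, against 118 in Young 1 and 241 in Young 2, with log2 ratios of 0.39 and 0.35 and a call after median-ratio scaling (limma, adjusted p = 0.0490). It is named because it was called, after its values were seen, as are Atg14, Atg3 and Atg4b below. Nbr1, a relative of Sqstm1 in function, had ratios of 0.45 and 0.37, and Optn, a receptor that takes part in mitophagy, had 0.40 and 0.13. Tbk1, a kinase that acts on such receptors, had ratios of -0.05 and 0.04. The summed FPKM of the 7 genes was 1.42 times the sum of Young 2 in Old 1 and 1.36 times the sum of Young 1 in Old 2. The ratio of Sqstm1 to Map1lc3a within a sample was 1.94 in Old 1 and 1.77 in Old 2, and 0.694 in Young 1 and 0.720 in Young 2. Sqstm1 was thus the higher of the pair in old and the lower in young muscles. The ages did not overlap in this ratio, but Sqstm1 was named after its values were seen. Lack of overlap was also common after median-ratio scaling, with 27.8% of all tested genes higher and 28.4% lower in old samples.

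The complex that starts autophagosome formation showed small differences. Ulk1, its kinase, was at 31.2 FPKM in Old 1 and 16.2 in Old 2, against 15.9 in Young 1 and 29.9 in Young 2, with log2 ratios of 0.06 and 0.03. Ulk2, a second kinase of the same kind, was at 44.3, 22.8, 23.6 and 45.3 FPKM in that order, with log2 ratios of -0.03 and -0.05. The scaffold Atg13 was at 17.4 FPKM in Old 1 and in Young 2, and at 9.06 FPKM in Old 2 and in Young 1. For these 3 genes the difference between ages was below 0.1 on the log2 scale, and that between samples of the same age was about 1. Rb1cc1, a large scaffold of the complex, stood apart with 18.0, 9.45, 7.56 and 13.5 FPKM and log2 ratios of 0.42 and 0.32, without a call after median-ratio scaling (limma, adjusted p = 0.154).

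All 5 listed genes of the class III PI3-kinase complex had ratios above 0 in both pairs, where 42.3% of all tested genes did. Their medians were 0.32 and 0.28. The complex makes the lipid that marks the forming autophagosome. The kinase itself, Pik3c3, was at 9.60 FPKM in Old 1 and 4.77 in Old 2, against 3.26 in Young 1 and 6.59 in Young 2. Its log2 ratio was 0.54 in the first pair and 0.55 in the second, and its log2 fold change was 0.46 ± 0.974 (SE) as deposited and 0.47 ± 0.0613 after median-ratio scaling (limma, adjusted p = 0.0370). Atg14, the subunit that directs the kinase to autophagy, was low, at 5.15, 2.35, 1.68 and 3.59 FPKM, with log2 ratios of 0.52 and 0.48 (limma after median-ratio scaling, adjusted p = 0.0455). Becn1, the scaffold of the complex and its highest gene, was at 33.9, 16.8, 15.7 and 31.3 FPKM, with ratios of only 0.12 and 0.10. Uvrag, which stands in for Atg14 in another form of the complex, had 0.20 and 0.15, and the regulator Ambra1 had 0.32 and 0.28. The ratios of these 5 genes thus had the same sign and were larger for the kinase and for Atg14 than for Becn1.

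Genes that supply lipid to the growing membrane or bind the lipid mark mostly had ratios of the opposite sign, with 4 of 5 below 0 in both pairs. Atg9a, a membrane protein that carries lipid to the site, was the highest of them, at 77.4 FPKM in Old 1 and 39.0 in Old 2, against 54.5 in Young 1 and 106 in Young 2, with log2 ratios of -0.45 and -0.48. It missed the threshold after median-ratio scaling (limma, adjusted p = 0.0605). Of the lipid transfer genes, Atg2a had ratios of -0.34 and -0.36, and Atg2b had -0.11 and -0.10. Wipi2, which binds the lipid mark, had -0.14 in each pair. Its relative Wipi1 had 0.06 and 0.03, and is the sum of 2 rows at the same locus.

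The conjugation machinery split by enzyme, with 6 of 8 genes above 0 and 2 below 0 in both pairs. Atg3, the enzyme that transfers Atg8-family proteins to lipid, had log2 ratios of 0.34 and 0.38 (limma after median-ratio scaling, adjusted p = 0.0487). Atg10, the enzyme of the same kind for Atg12, had -0.43 and -0.47. Atg12, the highest gene of the group, was nearly level at 18.7 FPKM in Old 1 and 9.55 in Old 2, against 9.31 in Young 1 and 18.4 in Young 2, and its partner Atg5 had ratios of 0.04 and 0.02. Atg7, which activates both conjugation routes, had 0.20 and 0.18, and Atg16l1, which completes the Atg12 and Atg5 complex, had 0.20 and 0.19. The proteases that trim Atg8-family proteins and free them from lipid differed from each other. Atg4b had log2 ratios of -0.49 and -0.51 (limma after median-ratio scaling, adjusted p = 0.0450), and Atg4c had 0.34 and 0.46.

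Tfeb (chromosome 17, 47737037-47792416), the transcription factor known for switching on lysosome and autophagy genes, was at 54.8 FPKM in Old 1 and 28.5 in Old 2, against 21.1 in Young 1 and 40.2 in Young 2. Its log2 ratio was 0.44 in the first pair and 0.43 in the second, and it missed the threshold after median-ratio scaling (limma, adjusted p = 0.0770). The letters that this factor and its relatives are known to bind were looked for in the RefSeq promoter windows of the genes (GRCm38.p6, 250 bases before to 50 after the start, 37 of the 47 genes with a window). CACGTG was present in 10 of 37 windows (27.0%), against 8.09% of all 27025 genes with a window and 12.2% of the tested ones. The longer TCACGTGA, which contains it, was present in 5 (13.5%), against 1.12% and 2.35%. Each motif reads the same on both strands, so that 1 search covers both. Stretches around the longer motif are given here, as the letters that such factors are known to bind, in lower case with the motif in capitals, 5′ to 3′ on the strand of the gene. Atp6v0d1 holds it across its start and is not shown.
Atg3 (chr16:45158747-45158774, + strand): gagagtcgagTCACGTGAggccttaggt
Ctsa (chr2:164833750-164833772, + strand): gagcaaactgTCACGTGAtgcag
Atp6v1a (chr16:44139374-44139401, - strand): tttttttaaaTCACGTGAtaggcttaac
Mcoln1 (chr8:3500463-3500490, + strand): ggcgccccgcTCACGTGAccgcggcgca

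The 4 genes shown did not share a direction. Atg3 had log2 ratios of 0.34 and 0.38, Ctsa had -0.19 and -0.18, Atp6v1a had 0.05 and 0.07, and Mcoln1, with values of 11.0 FPKM in Old 2 and 13.5 in Young 1 alone, had -0.29 in that pair. A match of letters is not a measured binding site.

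Lysosomal enzymes and lipid carriers leaned to lower values in old muscles, with 5 of 6 genes below 0 in both pairs. Ctsb (chromosome 14, 63122462-63177793), a cathepsin that cuts proteins in the lysosome, was at 97.3 FPKM in Old 1 and 43.6 in Old 2, against 62.0 in Young 1 and 138 in Young 2. Old 1 lay between the young samples, and the log2 ratio was -0.50 in the first pair and -0.51 in the second. The log2 fold change was -0.50 ± 0.964 (SE) as deposited and -0.49 ± 0.0624 after median-ratio scaling (limma, adjusted p = 0.0362). Psap, the highest of the group, was at 478, 215, 245 and 542 FPKM in Old 1, Old 2, Young 1 and Young 2, with log2 ratios of -0.18 and -0.19. Ctsl, another cathepsin, had -0.07 and -0.08, the carboxypeptidase gene Ctsa -0.19 and -0.18, and Npc2, which hands cholesterol on inside the lysosome, -0.10 in each pair. Ctsz, a further cathepsin, had 0.05 and 0.22. Set against these genes, the cargo receptor and mitophagy genes summed to 1.70 times their FPKM in Old 1 and 1.66 times in Old 2, but to 1.05 times in Young 1 and 1.03 times in Young 2. Without Pink1 these values were 0.668 and 0.718 in Old 1 and Old 2, against 0.474 and 0.424 in Young 1 and Young 2.

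The tethering genes that join autophagosome and lysosome differed in sign. Vps18 was at 5.97, 2.90, 3.21 and 6.64 FPKM in Old 1, Old 2, Young 1 and Young 2, with log2 ratios of -0.15 in each pair. Vps41, of the same complex, was at 24.1, 12.6, 9.57 and 18.1 FPKM, with log2 ratios of 0.41 and 0.39 (limma after median-ratio scaling, adjusted p = 0.0900). Of the proton pump, Atp6v1a, a catalytic subunit, was at 9.94, 5.02, 4.78 and 9.61 FPKM with log2 ratios of 0.05 and 0.07, and Atp6v1h was at 9.81, 4.54, 3.76 and 8.07 FPKM with 0.28 and 0.27.

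A further list of 94 autophagy and lysosome genes, of which 66 had a value and were tested, gave the wider setting. limma as deposited called 0 of the 66 in either direction (0 at an unadjusted p under 0.05), and after median-ratio scaling it called 3 higher (5.61% of all tested genes) and 7 lower (7.94%). In the pairs of like scale 24 of them had ratios above 0 (42.3% of all tested genes) and 38 below 0 (45.2%), with medians of -0.08 and -0.06. None reached a log2 ratio of 1 in size in both pairs (4.53% of all tested genes did). The 3 called higher were Nrbf2, the pump gene Atp6v1g1 and a row labelled Atg4a. Nrbf2, a further subunit of the class III PI3-kinase complex, had log2 ratios of 0.88 and 0.86. The row labelled with the protease gene Atg4a had 0.70 and 0.69. That row lies on chromosome 3, at 103643953-103646068, and whether it measures the gene itself or a copy of it was not tested. Among those called lower were Gusb and Idua, hydrolases of sugar chains, with log2 ratios of -0.91 and -1.02 and of -0.65 and -0.75, and Lipa, the acid lipase, with -0.86 and -1.04. Relatives of Map1lc3a such as Map1lc3b and Gabarapl2 were not analysed here.

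The proton pump of the lysosome has a sector in the membrane, V0, and a sector outside it, V1, that uses ATP, and the genes of both lists were set out by sector after their values were seen. Of 6 V0 genes, 5 had ratios below 0 in both pairs, where 45.2% of all tested genes did. Of 7 V1 genes, 6 had ratios above 0 in both, where 42.3% did. Atp6v1g1 was at 273 FPKM in Old 1 and 140 in Old 2, against 81.6 in Young 1 and 154 in Young 2, log2 ratios of 0.83 and 0.78 (limma after median-ratio scaling, adjusted p = 0.0362). Atp6v0c, whose row also holds the copy Atp6v0c-ps2, was at 155, 80.9, 163 and 281 FPKM, log2 ratios of -0.86 and -1.01 (adjusted p = 0.0459 by the same limma setting), which makes its value uncertain. Atp6v0e was at 32.5, 14.5, 21.8 and 44.7 FPKM, with -0.46 and -0.58 (limma, adjusted p = 0.0324). Within a sample the sum of the V1 genes was 1.64 times that of the V0 genes in Old 1 and 1.65 times in Old 2, against 0.758 times in Young 1 and 0.785 times in Young 2. Atp6v0c, whose value is uncertain, was the highest V0 gene in every sample. Without it the ratio was 2.89 in Old 1 and 2.96 in Old 2, against 1.68 in Young 1 and 1.63 in Young 2, so V1 then exceeded V0 in all 4 samples. Of the V1 sum of 584 FPKM in Old 1, Atp6v1g1 made up 273, and the ratio without it was not computed. The ages did not overlap in these ratios, but the sectors were set out after the values were seen. Lack of overlap was common after median-ratio scaling, with 27.8% of all tested genes higher and 28.4% lower in old samples.

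**Figure D4:**
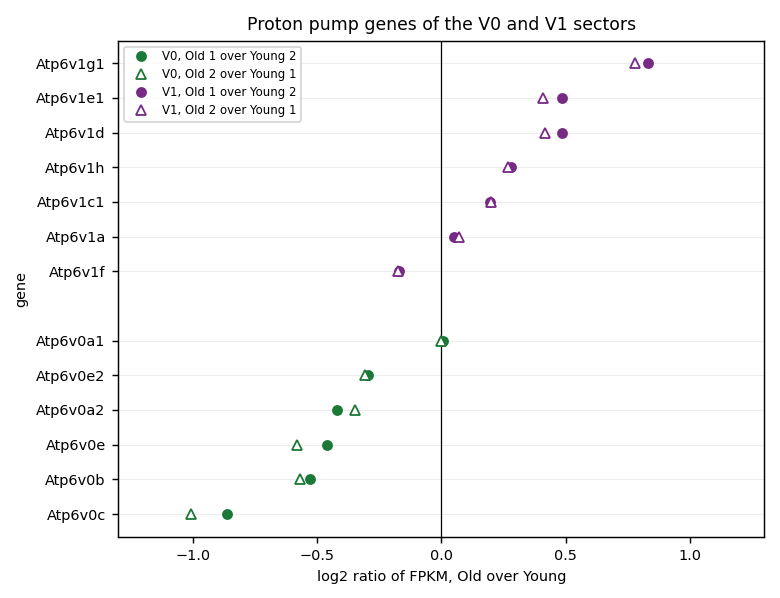
log2 ratio of FPKM, Old over Young (x axis), of 6 V0 and 7 V1 genes of the lysosomal proton pump (y axis), with filled circles for Old 1 over Young 2 and open triangles for Old 2 over Young 1. V0 genes (green) lie left of 0 or, for Atp6v0a1, at 0, down to -1.01 at Atp6v0c, and V1 genes (purple) lie right of 0 except Atp6v1f, up to 0.83 at Atp6v1g1.

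Several of the genes share their locus with another gene in the deposited values, so that reads could be split between them. This held for 11 of the 43. The other genes Elp5, 3010026O09Rik, Ddost and 1700101I11Rik were at 0 in Old 2 and Young 1 but not in the other samples. Cntd1, Fdft1, Neurl2, Pltp, Th1l and Vgll4 were above 0 in every sample. Ddost, which overlaps Pink1 on the opposite strand, was at 61.7 FPKM in Old 1 and 63.1 in Young 2 and listed at 0 in Old 2 and Young 1. Fdft1, at the locus of Ctsb, was at 45.3 and 53.5 FPKM in Old 1 and Young 2, and at 6.11 and 3.91 in Old 2 and Young 1. Vgll4, which overlaps Atg7 on the opposite strand, was at 17.0 and 7.86 FPKM in Old 1 and Young 2, and at 6.24 and 2.26 in Old 2 and Young 1. The paper names a stranded kit and the labels name it without that word, so whether reads of overlapping genes were kept apart is not certain. The median log2 ratio between samples of the same age was 1.13 for these 11 genes at each age, and 0.97 (Old) and 0.98 (Young) for the other 32. The median difference between the 2 pairs of like scale was 0.0194 for the 11 genes and 0.0198 for the other 32.

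**Figure D5:**
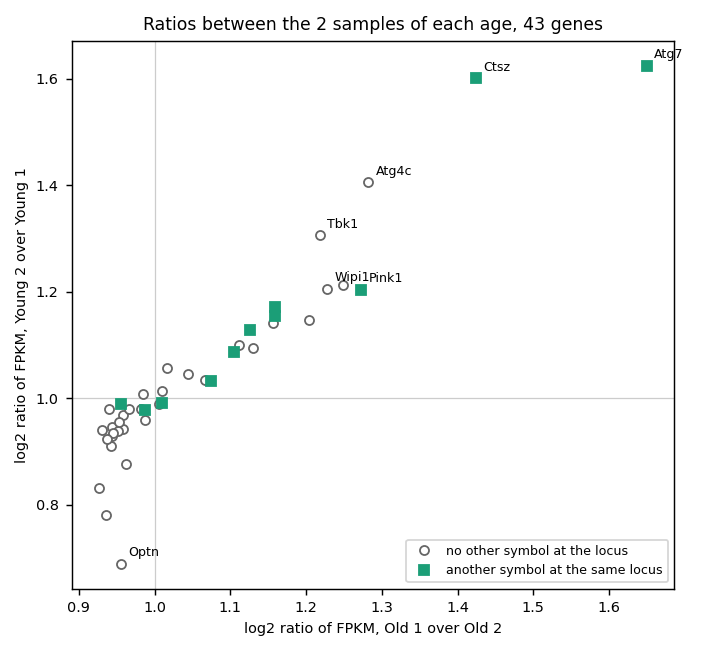
log2 ratio of FPKM of Old 1 over Old 2 (x axis) against Young 2 over Young 1 (y axis) for the 43 genes, with green squares for genes that share their locus with another gene symbol and open circles for the others. Most genes lie close to 1 on both axes, and Atg7, at 1.65 and 1.63, and Ctsz lie farthest from it.

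Other measures differed between ages in the same samples. Of 6 slow-fiber markers, 5 had a value, and all 5 were called higher in Old as deposited (limma), with summed FPKM 16.0-fold and 15.1-fold higher in the pairs, 1167 in Old 1 and 421 in Old 2 against 27.9 in Young 1 and 73.0 in Young 2. Macrophage markers, of a cell type rich in lysosomes, were low, with sums of 42.6 and 13.9 FPKM in Old 1 and Old 2 and 21.9 and 61.1 in Young 1 and Young 2 over 14 genes. All 9 of them that were tested had ratios below 0 in both pairs, and the defining gene Adgre1 was at most 0.558 FPKM in any sample. Of those too low to be tested, Ptprc had log2 ratios above 0, at 0.56 and 0.33, and Adgre1 and Itgam had ratios below 0 in both pairs. Fcgr1 was listed at 0 in Old 2 and Young 1, and Aif1 in Old 2. The sum of 6 fibroblast markers was 0.686 and 0.696 times as high in old muscles, but its genes differed in sign, with Dcn (1.24 and 1.22 times) and Pdgfra (1.16 and 1.18 times) above 1 and the collagen genes Col1a1 (0.230 and 0.235 times), Col1a2 (0.318 and 0.328 times) and Col3a1 (0.340 and 0.367 times) below it. The sum of 5 endothelial markers was 0.806 and 0.788 times as high, but its genes differed. Flt1 (0.535 and 0.532 times), Pecam1 (0.819 and 0.806 times) and Emcn (0.951 and 0.905 times) were below 1. Kdr (1.03 and 1.00 times) and Tek (1.01 and 0.989 times) were nearly level. That of 5 adipocyte markers was 0.927 and 0.913 times as high and was mostly Fabp4 (0.906 and 0.899 times), whereas the other 4 were above 1 in both pairs, namely Adipoq (1.97 and 2.17 times), Plin1 (log2 ratios of 0.44 and 0.57), Cidec (1.35 and 1.29 times) and Lep, which was too low to be tested (3.17 and 6.45 times). The row of Hba-a1 and Hba-a2, hemoglobin genes of red blood cells, was 6.85-fold and 7.02-fold higher. Muscle fiber markers were the most abundant, such as Myl1 at 3168 to 18206 FPKM, but Ckm was listed at 0 in all 4 samples, Ttn in both old samples and Neb in Old 2 and Young 1, which may be failed estimates. What part fiber type or other cells had in the ratios of the autophagy and lysosome genes was not tested.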

How the data were processed

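TA muscle mRNA-seq values were used from 2 samples per age, grouped by the ages and numbers in the sample labels. The authors aligned trimmed, deduplicated reads to the mouse genome (mm10) and deposited FPKM values per locus, and the submitters' processing notes name TopHat2 2.0.10 and Cuffdiff 2.1.1. Each sample's values ended with 1 incomplete line, which was left out, and 20605 loci with a value in all 4 samples were kept. Loci of the same symbol were summed. Depth is unknown, because FPKM holds no counts. Low values, taken as FPKM times length in kb, gathered at 0.08 to 0.11 in Old 1 (130 genes) and Young 2 (92 genes). They did not do so in Old 2 (11 genes) or Young 1 (12 genes). As steps of whole reads were not found in every sample, no count test was run and no counting error is given.

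Ages were compared by limma 3.58.1 under R 4.3.3 on log2(FPKM + 1), two-sided, with eBayes and a variance trend, Benjamini-Hochberg adjustment over 10266 genes and a threshold of adjusted p under 0.05. The fit was also run on simulated data with equal scale or a constant factor between samples. That does not cover a factor that differs with the level of a gene, as it did here. Values in every sample are given for genes with a log2 ratio of at least 0.5 in size in both pairs, for each gene of a role with up to 4 genes and for the highest gene of a larger role. The genes, the lists and the pairs were chosen with earlier results of these data known. Alternatives were a pseudocount of 0.1, other filters, scalings and blocks, the highest row per symbol, no trend and leaving out each sample. Older symbols were matched through RefSeq (GRCm38.p6).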

Additional observations from a re-analysis of the deposited data

How the results depend on the processing

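As deposited, 18 genes were called higher and 13 lower in Old among all tested genes, and 0 and 0 among the members. Without a filter on low values the counts over all genes were 0 and 0, requiring 1 FPKM in each of the 4 samples gave 4 and 2, and with quantile normalization 119 and 188 (members 1 and 1, Bnip3l and Map1lc3a). Median-ratio scaling gave 576 and 815 (members 5 and 3), cyclic loess 1584 and 1550 (members 14 and 4), and the crossed pairs as a block 2812 and 3374 (members 17 and 13). A pseudocount of 0.1, median scaling, the highest row per symbol and no trend each called 0 members and stayed within 1.5 times of the counts over all genes.

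With a replicate block made from the label numbers, 2 genes were called higher and 3 lower, and 0 members. The numbers do not pair the samples: deviations of same-numbered samples correlated at -0.885 over 10266 genes, those of crossed numbers at 0.885.

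Leaving out 1 sample gave 2 to 6 genes higher and 3 to 10 lower, with 0 members called, and moved the median log2 fold change of the members from 0.05 to between -0.43 and 0.55. It was -0.42 without Old 1, -0.43 without Young 1, 0.54 without Old 2 and 0.55 without Young 2. The age left with 1 sample was assumed to vary like the other. The sign changed for 21 of 25 genes (the 21 named by the rule and 4 more called after median-ratio scaling) and not for Pik3c3, Map1lc3a, Tax1bp1 and Bnip3l. The log2 fold changes then ranged over Ulk1 -0.41 to 0.50, Ulk2 -0.50 to 0.43, Atg13 -0.44 to 0.44, Rb1cc1 -0.0901 to 0.77, Becn1 -0.38 to 0.59, Atg9a -0.94 to 0.024, Atg12 -0.43 to 0.48, Gabarap -0.73 to 0.44, Gabarapl1 -0.11 to 0.83, Pink1 -0.12 to 1.15, Tfeb -0.037 to 0.88, Ctsb -1.07 to 0.071, Psap -0.76 to 0.39, Vps18 -0.55 to 0.31, Vps41 -0.069 to 0.82, Atp6v1a -0.39 to 0.49, Atp6v1h -0.25 to 0.72, Sqstm1 -0.17 to 0.90, Atg14 -0.067 to 0.81, Atg3 -0.15 to 0.81 and Atg4b -0.89 to 0.0069.

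Beyond samples left out, Ulk2 changed sign with cyclic loess (0.0056) and Atg13 with quantile normalization (0.037), median-ratio scaling (0.012) and cyclic loess (0.028), all near 0.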
